A study of Homo sapiens with 36 samples.

Results

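RN7SK, RN7SL1, RN7SL2, RMRP, RPPH1, SCARNA2, TERC, MALAT1 and NEAT1 are noncoding RNAs that are mostly made without a poly(A) tail or kept in the nucleus, and libraries from total RNA can capture them where poly(A) selection would lose them. They were chosen by symbol, from these 9 names, and looked up by Ensembl identifier in a table of 74628 gene rows. A row was found for 4 of the 9, which are RN7SL1, TERC, MALAT1 and NEAT1. RN7SK, RN7SL2, RMRP, RPPH1 and SCARNA2 were not analysed here.

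The cells were Jurkat, an established human line of leukaemic T lymphocytes, carrying mCherry and a stable dCas9-VP64, a Cas9 that cannot cut, fused to a transcriptional activator (CRISPR activation, CRISPRa). All groups shared this background and 3 days of puromycin. They differed in the guide delivered by a lentiviral pXPR vector, either sgRELA, directed at the NF-kB subunit gene RELA, or sgControl, which is non-targeting, and in the harvest on day 5, 6 or 7 after transduction. There were 6 combinations of guide and day, each with 3 biological replicates (RNA samples). Each RNA sample gave 2 RamDA-seq libraries from 100 pg of total RNA, 36 libraries in all. RamDA-seq primes along whole transcripts and does not need a tail. One guide name is given per condition and the separate transductions are of 1 cell line, so p-values measure the spread between these samples, and an effect of the guide cannot be told apart from an effect of RELA.

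RN7SL1 encodes 7SL, the RNA scaffold of the signal recognition particle, which docks ribosomes making secreted proteins on the endoplasmic reticulum. It is made by RNA polymerase III and works mainly in the cytoplasm. TERC is the template RNA of telomerase. NEAT1 is the architectural RNA of paraspeckles, nuclear bodies that hold RNA-binding proteins such as NONO and SFPQ, and MALAT1 is a neighbouring long RNA that collects in nuclear speckles, next to splicing factors. The long NEAT1 form and MALAT1 are not polyadenylated at their mature ends, which are cut by RNase P and protected by a triple helix of U-rich and A-rich stretches.

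RN7SL1 has near-identical copies in the genome, RN7SL2 and RN7SL3 among them, and a read from one can fit another. How such reads were counted is not given in the sources used here. The count of RN7SL1 is therefore uncertain as a measure of this gene alone.

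The 3′ stretches of the long NEAT1 and MALAT1 transcripts are shown because they hold the parts that take the place of a poly(A) tail. The NEAT1 window is chr11:65445434-65445540 and the MALAT1 window chr11:65506015-65506116, both on the plus strand (GENCODE v29, GRCh38). Capitals mark the longest stretch shared by the last 500 bases of both transcripts, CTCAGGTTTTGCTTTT, and the longest shared stretch after it, AAAAAGCAAAA.
NEAT1: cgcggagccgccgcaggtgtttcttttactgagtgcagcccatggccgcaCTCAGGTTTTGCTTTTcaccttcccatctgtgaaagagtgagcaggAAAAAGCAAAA
MALAT1: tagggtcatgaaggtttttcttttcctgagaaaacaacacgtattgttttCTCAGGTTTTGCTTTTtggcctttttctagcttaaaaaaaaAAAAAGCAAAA
Both stretches, searched in this order on the transcript strand with at most 80 bases between them, were found in 2 of 206534 GENCODE v29 transcripts, 1 of NEAT1 and 1 of MALAT1. The stretches were taken from these 2 transcripts, so both had to be found. Only exact matches were searched, and similar stretches in other transcripts were not. In the long NEAT1 transcript (22743 bases) the A-rich stretch was the last sequence of the annotated RNA, and in the MALAT1 transcript (8708 bases) 353 annotated bases followed it.

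The telomerase template is shown because it is the part of TERC that is copied into telomeric DNA. The window is chr3:169764980-169765040 on the minus strand, and capitals mark CTAACCCTAAC, the longest stretch of TERC that is complementary to repeats of TTAGGG.
TERC: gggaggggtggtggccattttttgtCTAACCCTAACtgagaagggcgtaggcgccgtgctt

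The libraries held 7586205 to 16124473 gene counts (median 12052035), and the 2 libraries of an RNA sample together 18769530 to 29503934. In sgControl, RELA stood at 20.8 to 39.1 CPM (a gene's counts scaled to a total of 1000000) in the 9 RNA samples, and in sgRELA at 117 to 318 CPM, so the targeted gene followed the guide label in all 18. All 12 T cell markers were detected in each RNA sample, with CD3D at 278 to 468 CPM and LCK at 562 to 977 CPM. Myeloid, erythroid and epithelial markers each stayed at or under 2.98 CPM. Of the B cell markers reported here, CD79A stood at 16.2 to 28.2 CPM in sgControl and 49.5 to 61.0 CPM in sgRELA, while MS4A1, CD79B and PAX5 were at 0 to 1.12 CPM. First libraries of sgControl day 5 replicate 2 and sgControl day 6 replicate 1 had few detected genes (25398 and 26526, against a median of 27632), and guide effects on NEAT1 and RN7SL1 are also given without them.

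NEAT1 was abundant and RN7SL1 moderately so, while MALAT1 and TERC were scarce in these counts. NEAT1 took 0.180% to 0.320% of all gene counts in a library, with a median of 0.243%, and its mean of 2511 CPM ranked 11 of all rows. RN7SL1 took 0.00693% to 0.0397%, and its mean of 156 CPM ranked 1349. MALAT1, an RNA known for very high levels in many cell types, was counted at 0.178 to 5.64 CPM, which is 2 to 75 counts per library and 934 counts in all, and ranked 15399. TERC had 73 counts over all libraries and at least 1 count in 16 of 36, with a rank of 27760. RefSeq places the antisense gene TALAM1 over 7205 bases, 82.1%, of MALAT1. Whether counting used strand is not given in the sources used here, and the part of this overlap in the low MALAT1 count was not tested.

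Levels between genes were compared per kilobase of transcript. On this scale RN7SL1 stood at 515 ± 139 CPM per kb (SD, 18 RNA samples), NEAT1 at 110 ± 14.7 with the length of its long transcript, TERC at 0.317 ± 0.382 and MALAT1 at 0.256 ± 0.0947. The last pair overlapped and their order is not settled. The order of the first pair depended on the NEAT1 form: with the 3441 bases of the annotated short transcript, NEAT1 stood at 730 ± 97.2 CPM per kb, above RN7SL1. The short and the long form share their first part, and gene counts do not separate them. In GENCODE v29 the long form runs 19083 bases beyond the end of the short form. Whether reads over these bases were counted for NEAT1 is not given in the sources used here.

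NEAT1 was higher with sgRELA than with sgControl. On day 5 the 3 sgControl RNA samples stood at 2221, 2392 and 2269 CPM, and the 3 sgRELA samples at 2922, 3036 and 2892 CPM. On day 6 sgControl stood at 2036, 2258 and 2481 CPM and sgRELA at 2982, 2739 and 3019 CPM. On day 7 sgControl stood at 2233, 2138 and 2197 CPM and sgRELA at 2409, 2446 and 2565 CPM. All 3 sgRELA samples were above all 3 sgControl samples on each day, with and without the scaling used in the fit. With that scaling this was so for 5.85%, 5.91% and 5.24% of the 27553 genes tested on days 5, 6 and 7. The gap between the groups was narrowest on day 7. The same held for single libraries, where the 6 sgRELA libraries of a day were all above its 6 sgControl libraries, with 2844 CPM as the lowest against 2419 CPM as the highest on day 5, 2674 against 2489 CPM on day 6, and 2373 against 2341 CPM on day 7. These libraries are pairs from the same 3 RNA samples per group and add no independent samples. The share of all genes for which this held is not given here. With the scaling used in the fit, all 9 sgRELA RNA samples were above all 9 sgControl RNA samples, which was so for 20 of 27553 genes tested (0.0726%). On the plain CPM scale they overlapped. There sgControl day 6 replicate 3 (2481 CPM) was above sgRELA day 7 replicates 1 and 2 (2409 and 2446 CPM). The 3 days of 1 replicate number may be 1 transduction, so the 9 samples of a guide may not be independent. In these bulk samples, more RNA per cell and more cells with a high level cannot be told apart.

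**Figure D1:**
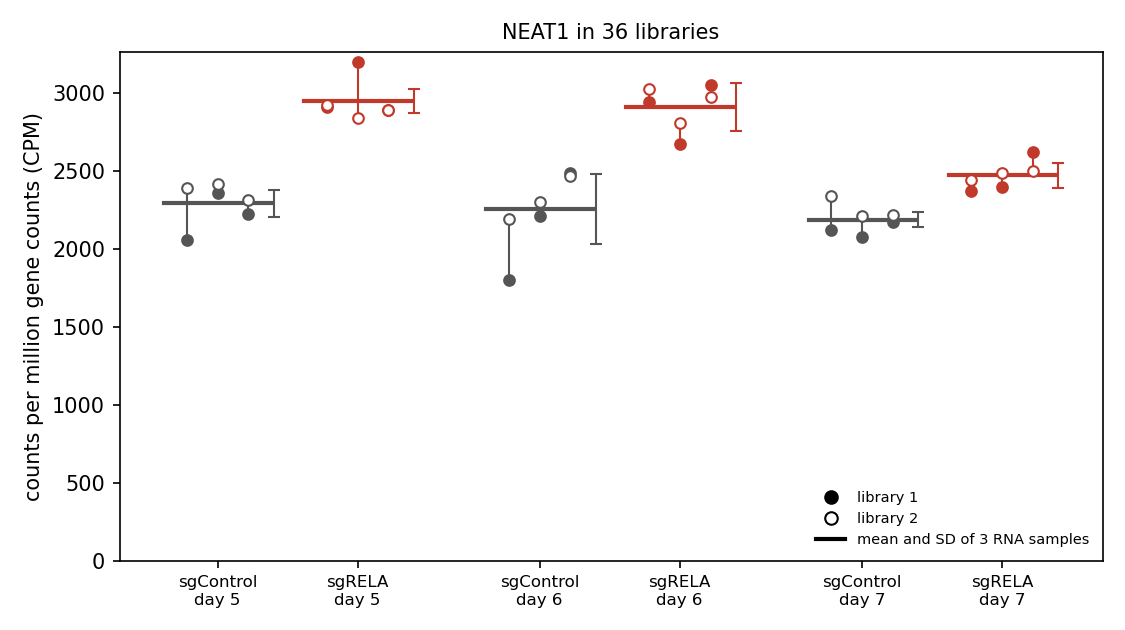
NEAT1 in CPM (y axis) in the 36 libraries, by guide and day (x axis). Filled points are library 1, open points library 2, a thin line joins the libraries of 1 RNA sample, and the thick line with its bar is the mean and SD of 3 RNA samples. The sgRELA libraries lie above the sgControl libraries of the same day, with 2373 CPM as the lowest against 2341 CPM as the highest on day 7.

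Group means of NEAT1 on the plain CPM scale were 2294 ± 88.5 (sgControl) and 2950 ± 76.2 (sgRELA) on day 5, 2259 ± 222 and 2914 ± 152 on day 6, and 2189 ± 48.2 and 2473 ± 81.6 on day 7 (SD, n = 3 each). edgeR's quasi-likelihood test put the day 5 log2 fold change at 0.36 ± 0.06 (SE) with an adjusted p of 0.00271, and 0.39 ± 0.06 on day 6 with an adjusted p of 0.000602. On day 7 the log2 fold change was 0.18 ± 0.06, and it missed the threshold of 0.05 (edgeR, adjusted p = 0.920). With counts added over the 3 days, 3 sums against 3, NEAT1 rose 1.24-fold, a log2 fold change of 0.31 ± 0.03 (edgeR, adjusted p = 4.10e-07). The called changes were larger than the spread between replicates, and that on day 7 was not called. Of the members tested, NEAT1 was the 1 that passed in 3 of these comparisons: 1 of 4 across days, where 0.363% of 28888 genes were called, 1 of 3 on day 5 (0.138% of 27553), 1 of 3 on day 6 (0.214%) and 0 of 3 on day 7 (0.0907%), where NEAT1 was the 1 with an unadjusted p under 0.05 and DESeq2 called 0. Of all genes tested on day 7, 4.68% had an unadjusted p under 0.05. The smaller value on day 7 was not shown to differ from the other days, since the edgeR test of guide by day gave an adjusted p of 1 (unadjusted 0.0386), with 0.00363% of genes called. With the first library of each RNA sample alone the day 5 and day 6 changes were 0.44 and 0.46 but not called (edgeR, adjusted p = 0.343 and 0.269). Without the 2 libraries with few detected genes they were 0.36 and 0.35 (edgeR, adjusted p = 4.12e-05 and 6.11e-05).

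The B cell marker CD79A, a subunit of the B cell receptor, was also higher with sgRELA. It rose 2.82-fold across days (edgeR, adjusted p = 3.88e-11). MS4A1, CD79B and PAX5, which also mark B cells, were at or near 0 in both guides.

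**Figure D2:**
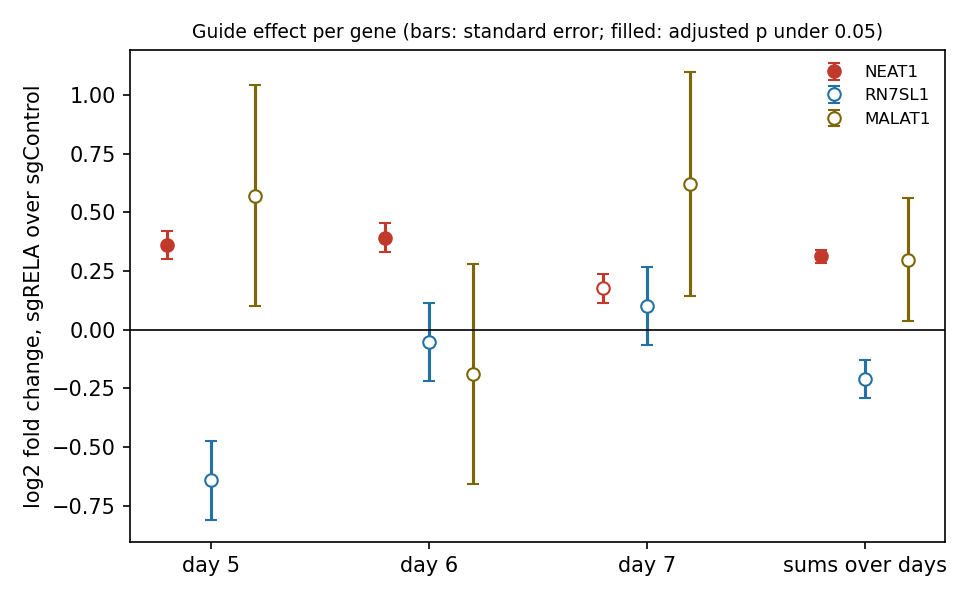
Log2 fold change of sgRELA over sgControl (y axis) for NEAT1, RN7SL1 and MALAT1 on each day and for the sums over days (x axis), with standard errors as bars. Filled points passed an adjusted p of 0.05: NEAT1 on day 5 (0.36), on day 6 (0.39) and over the summed days (0.31).

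NEAT1 and MALAT1 lie on the same arm of chromosome 11 as RELA, so the guide effect was also read by position. NEAT1 is at chr11:65422774-65445540 on the plus strand, MALAT1 at chr11:65497688-65506516 on the plus strand, and RELA at chr11:65653596-65663094 on the minus strand (GENCODE v29, GRCh38). NEAT1 ends 208 kb and MALAT1 147 kb before RELA begins. Of the 11 tested genes between NEAT1 and RELA, MALAT1 included, edgeR's quasi-likelihood test called 0 across days, beside 0.363% of all genes. An unadjusted p under 0.05 was seen for 2, beside 6.74% of all genes. A value above 0 was seen for 8, and the median log2 fold change of the 11 was 0.10 with a range from -0.39 to 0.33. The highest of them, named after its value was seen, was the kinase gene MAP3K11, with a value like that of NEAT1 (0.33 ± 0.08; edgeR, adjusted p = 0.0915). DESeq2 called 1 of the 11, which was MAP3K11, and 224 genes in all, and gave no adjusted p for 2 of the 11. RELA itself rose 7.72-fold (log2 fold change 2.95 ± 0.07; edgeR, adjusted p = 9.39e-17). Its divergent transcript RELA-DT rose 2.38-fold (edgeR, adjusted p = 0.00111).

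**Figure D3:**
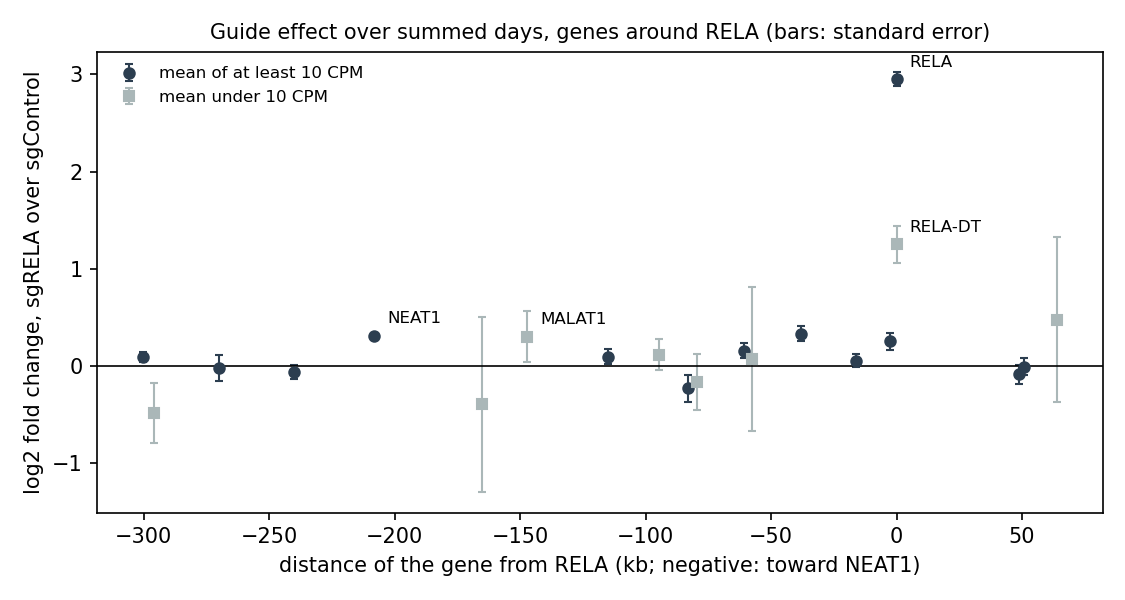
Log2 fold change of sgRELA over sgControl for the summed days (y axis) against the distance of a gene from RELA in kb (x axis, negative toward NEAT1), with standard errors as bars. NEAT1, 208 kb away, stands at 0.31, and the 11 genes between it and RELA range from -0.39 to 0.33.

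Out of 10462 genes at or above 10 CPM on average, those whose log2 level followed NEAT1 most closely over the 18 RNA samples were NFKBIA (Pearson r = 0.902) and RELA (r = 0.883). NFKBIA encodes the NF-kB inhibitor IkB-alpha and is a textbook target of NF-kB. These points share libraries and the 6 groups of guide and day, and r is given as a description. Side by side, the median of 3 RNA samples for NFKBIA was 11.5 CPM in sgControl and 33.3 CPM in sgRELA on day 5, 14.2 and 32.1 CPM on day 6, and 12.7 and 24.8 CPM on day 7. In sgRELA the RELA level was 291 ± 29.5, 206 ± 20.5 and 124 ± 7.99 CPM on days 5, 6 and 7, beside 2950, 2914 and 2473 CPM for NEAT1.

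Over time NEAT1 was lower on day 7 than on day 5. The tests between days took the RNA samples as independent, though the 3 days of 1 replicate number may be 1 transduction. Averaged over both guides, day 7 was lower than day 5 by a log2 fold change of -0.14 ± 0.04 (edgeR, adjusted p = 0.0210), beside 22.7% of all genes called in that comparison, and 1 of 3 members was called. In sgRELA alone the change was -0.23 ± 0.06 (edgeR, adjusted p = 0.0110, 12.4% of genes called). In sgControl alone it was -0.04 ± 0.06 (adjusted p = 0.739, 13% of genes called). The averaged call was lost when any of 5 RNA samples was left out, with an edgeR adjusted p of 0.0580 without sgControl day 5 replicate 2, 0.0594 without sgControl day 7 replicate 2, 0.0508 without sgRELA day 5 replicate 2, 0.0590 without sgRELA day 7 replicate 1 and 0.0525 without sgRELA day 7 replicate 2. It was also lost with the first libraries alone (-0.15, edgeR, adjusted p = 0.264) and with no filter on low counts (-0.13, edgeR, adjusted p = 0.0838). Day 6 against day 5 gave -0.08 ± 0.04 and day 7 against day 6 gave -0.05 ± 0.04, neither called (edgeR, adjusted p = 0.215 and 0.448). The first of these was called without sgControl day 6 replicate 3 (-0.13, edgeR, adjusted p = 0.0323), and the second with plain total counts in place of TMM factors (-0.14, edgeR, adjusted p = 0.00756).

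RN7SL1 showed no guide effect that passed the test with the filter on low counts and all samples, and its libraries were widely spread. On day 5 the sgControl RNA samples stood at 254, 192 and 116 CPM and the sgRELA samples at 126, 129 and 105 CPM. On day 6 they stood at 239, 146 and 166 CPM and at 172, 163 and 184 CPM. On day 7 they stood at 112, 131 and 135 CPM and at 133, 136 and 136 CPM. The groups overlapped on days 5, 6 and 7, and the sgControl samples of days 5 and 6 were more scattered than the sgRELA samples.

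Group means of RN7SL1 were 187 ± 69.3 and 120 ± 13.1 CPM on day 5, 184 ± 49.0 and 173 ± 10.6 CPM on day 6, and 126 ± 12.3 and 135 ± 1.65 CPM on day 7 (sgControl and sgRELA, SD, n = 3). The log2 fold change of sgRELA over sgControl was -0.64 ± 0.17 on day 5 (edgeR, adjusted p = 0.248), -0.05 ± 0.17 on day 6 (adjusted p = 1) and 0.10 ± 0.17 on day 7 (adjusted p = 1). Across days it was -0.21 ± 0.08 (edgeR, adjusted p = 0.558). The day 5 value was called without sgControl day 5 replicate 3 (-0.89, edgeR, adjusted p = 0.000624) and with no filter on low counts (-0.64, edgeR, adjusted p = 5.38e-06). It was -1.22 with the first libraries alone and 0.20 with the second libraries alone, neither called (edgeR, adjusted p = 0.288 and 0.999). Without the 2 libraries with few detected genes it was -0.39 on day 5 and -0.0653 across days (edgeR, adjusted p = 0.699 and 0.972). The direction on day 5 thus depended on the library set. The edgeR test of guide by day gave an adjusted p of 1 (unadjusted 0.00872), and 0.00501 with no filter.

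Single libraries carried these values. Library 1 of sgControl day 6 replicate 1 held 3010 RN7SL1 counts, 397 CPM, and library 2 of the same RNA held 133 CPM. Library 1 of sgControl day 5 replicate 1 stood at 345 CPM against 157 CPM in library 2, and in replicate 2 of that group the values were 296 and 103 CPM. These 3 first libraries were the highest of all 36, and the next was library 2 of sgRELA day 6 replicate 1 with 242 CPM. The libraries at 296 and 397 CPM were the pair with few detected genes, and the library at 345 CPM had the fourth fewest (26705). The third fewest (26605) were in library 2 of sgControl day 7 replicate 2, where RN7SL1 stood at only 119 CPM. The first libraries of sgControl day 6 replicate 1 and day 5 replicate 1 also had the lowest NEAT1 levels of all libraries, 1801 and 2059 CPM. The part of library complexity in the RN7SL1 values was not tested. Without the 2 libraries with few detected genes, the day 6 guide difference was 0.23 in place of -0.05.

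**Figure D4:**
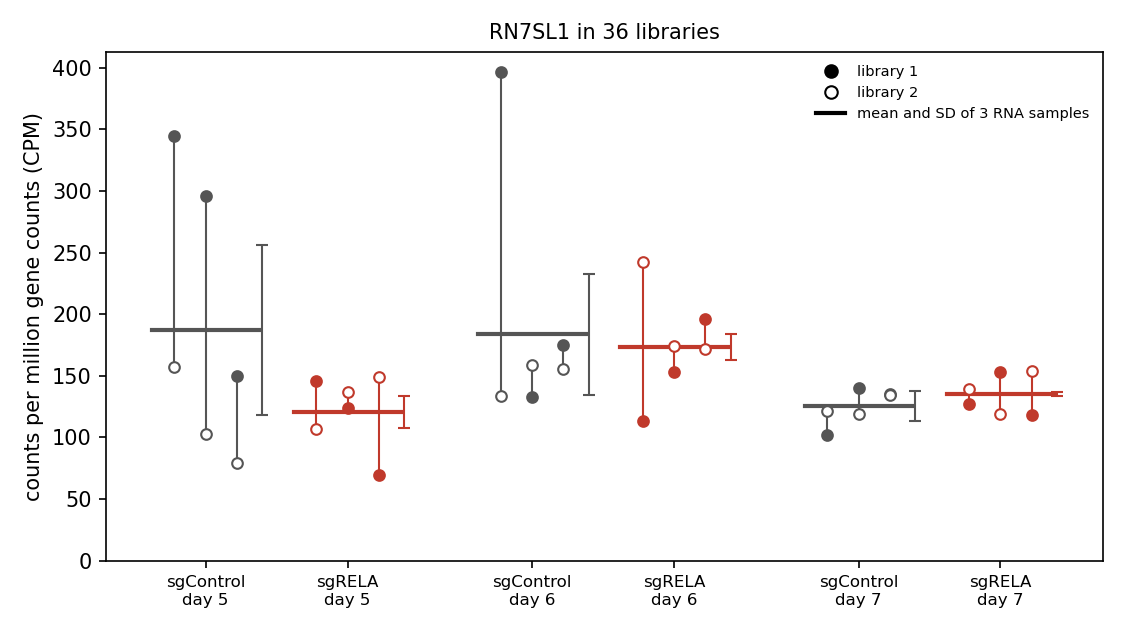
RN7SL1 in CPM (y axis) in the 36 libraries by guide and day (x axis), drawn as for NEAT1. The thin lines show libraries of 1 RNA sample that differ by up to 2.98-fold, in sgControl day 6 replicate 1, and the 3 highest points (296 to 397 CPM) are first libraries of sgControl.

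Day 7 was lower than day 6 for RN7SL1, averaged over both guides, by a log2 fold change of -0.36 ± 0.12 (edgeR, adjusted p = 0.0241), in a comparison where 22.7% of all genes were called and 1 of 3 members was. This call was lost with DESeq2 (adjusted p = 0.0889), with either library set alone (edgeR, adjusted p = 0.187 and 0.0584), and without the 2 libraries with few detected genes (-0.20, edgeR, adjusted p = 0.319). It was also lost without sgControl day 6 replicate 1 (-0.23, edgeR, adjusted p = 0.149), without sgControl day 7 replicate 1 (adjusted p = 0.0633) and without sgRELA day 6 replicate 3 (adjusted p = 0.0537). Day 6 against day 5 gave 0.18 ± 0.12 and day 7 against day 5 gave -0.18 ± 0.12, neither called (edgeR, adjusted p = 0.340 and 0.307; 16.7% of genes were called in the first). Each was called without 1 sample, the first at 0.32 without sgControl day 5 replicate 1 and the second at -0.31 without sgControl day 5 replicate 3 (edgeR, adjusted p = 0.0363 and 0.0174). The first was also called with the second libraries alone, at 0.46 (edgeR, adjusted p = 0.0100), against 0.0489 with the first libraries alone (adjusted p = 0.942). Without the 2 libraries with few detected genes the second was -0.0344 (adjusted p = 0.894).

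The 7SL copies, 659 rows whose name is RN7SL with another number and which are mostly pseudogenes, summed to 170 to 329 CPM per library, a median of 207 CPM. Their sum was thus of the size of the RN7SL1 level. The library with the highest RN7SL1 level also had the highest sum of copies (329 CPM). RN7SL3 stood at 1.07 to 6.03 CPM. Of 198 copies tested across days 0 were called by edgeR or DESeq2, but DESeq2 gave no adjusted p for 140 of them. By edgeR 4 had an unadjusted p under 0.05, beside 6.74% of all genes. The median log2 fold change of the 198 was -0.08, beside -0.0019 over all genes. The genes whose log2 level followed RN7SL1 most closely over the 18 RNA samples were RPLP1 (r = 0.881) and RPS21 (r = 0.874). Both encode ribosomal proteins, and r is a description over samples that share libraries. The 7SK copies, 286 rows named RN7SKP with a number, summed to 36.6 to 72.5 CPM. Of 53 tested across days 0 were called by edgeR or DESeq2, but DESeq2 gave no adjusted p for 43 of them. By edgeR 1 of the 53 had an unadjusted p under 0.05.

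MALAT1 showed no change that passed the test, at few counts. On day 5 sgControl RNA samples stood at 1.17, 1.87 and 2.30 CPM and sgRELA samples at 1.90, 3.32 and 2.71 CPM. On day 6 the values were 2.90, 2.38 and 3.47 CPM against 1.72, 2.16 and 3.68 CPM. On day 7 they were 1.49, 1.54 and 1.12 CPM against 2.60, 0.949 and 2.82 CPM. The groups overlapped on each day. The log2 fold changes were 0.57 ± 0.47, -0.19 ± 0.47 and 0.62 ± 0.48 on days 5, 6 and 7 (edgeR, adjusted p = 0.978, 1.000 and 1), and 0.30 ± 0.26 across days (adjusted p = 0.916). The value across days was close to that of NEAT1, but its standard error was nearly as large as the value. Between days the edgeR values were 0.26 ± 0.33 (day 6 against 5), -0.31 ± 0.33 (day 7 against 5) and -0.57 ± 0.34 (day 7 against 6), with adjusted p of 0.685, 0.572 and 0.255. ATXN3 (r = 0.784) and ARL6 (r = 0.757) followed MALAT1 most closely, as a description from 24 to 84 counts per RNA sample.

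TERC was at the limit of detection. RNA samples of sgControl held 4, 0 and 0 counts on day 5, 0, 3 and 15 on day 6, and 15, 1 and 9 on day 7. Those of sgRELA held 0, 9 and 0 counts, then 5, 2 and 2, then 0, 3 and 5. A library with 0 counts allows a level of up to 0.186 to 0.395 CPM, depending on its depth (3 counts of the total, counting error only). TERC passed the filter on low counts only for the sums over days, where the sums were 19, 4 and 24 counts in sgControl and 5, 14 and 7 in sgRELA. The log2 fold change there was -0.90 ± 0.92 (edgeR, adjusted p = 0.936). A guide effect on TERC was not detected, with a standard error larger than the value.

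The 2 libraries of an RNA sample agreed closely for NEAT1 and poorly for the others. The larger of the 2 CPM values exceeded the smaller by 1.00 to 1.22-fold for NEAT1 (median 1.04), by 1.01 to 2.98-fold for RN7SL1 (median 1.24) and by 1.16 to 11.7-fold for MALAT1 (median 2.21). For TERC both libraries held a count in 4 of 18 pairs. On the log2 scale after TMM scaling the median size of the ratio was 0.0559 for NEAT1, against a median of 0.146 over 2494 genes of at least 100 CPM. It was 0.311 for RN7SL1, above that figure and near 0.318, the median over all 15823 genes with a count in every library. For MALAT1 it was 1.13, against 0.661 over 5331 genes of 1 to 10 CPM. The ratio of NEAT1 was thus smaller than the median of that broad class, in which most genes have lower levels than NEAT1, and those of RN7SL1 and MALAT1 were larger than the medians of the classes they belong to.

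Most gaps were larger than counting error. By an exact binomial test of the reads of each pair, 15 of 18 NEAT1 pairs differed at an unadjusted p under 0.05, 17 of 18 RN7SL1 pairs, 13 of 18 MALAT1 pairs and 4 TERC pairs, a comparison of libraries and not of conditions. PCR copies are counted as separate reads here, since no molecular identifiers are named. For comparison, the SD of log2 CPM between the RNA samples of a group was 0.0751 for NEAT1, 0.295 for RN7SL1 and 0.523 for MALAT1. The SD between libraries of 1 RNA sample was 0.0767, 0.531 and 1.19 on the same scale, and 0.0828, 0.532 and 1.19 after TMM scaling. The SD between libraries was the larger for RN7SL1 and MALAT1 and nearly the same for NEAT1 on the plain scale. It is for single libraries, while that between RNA samples is for sums of 2, which are expected to spread less.

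**Figure D5:**
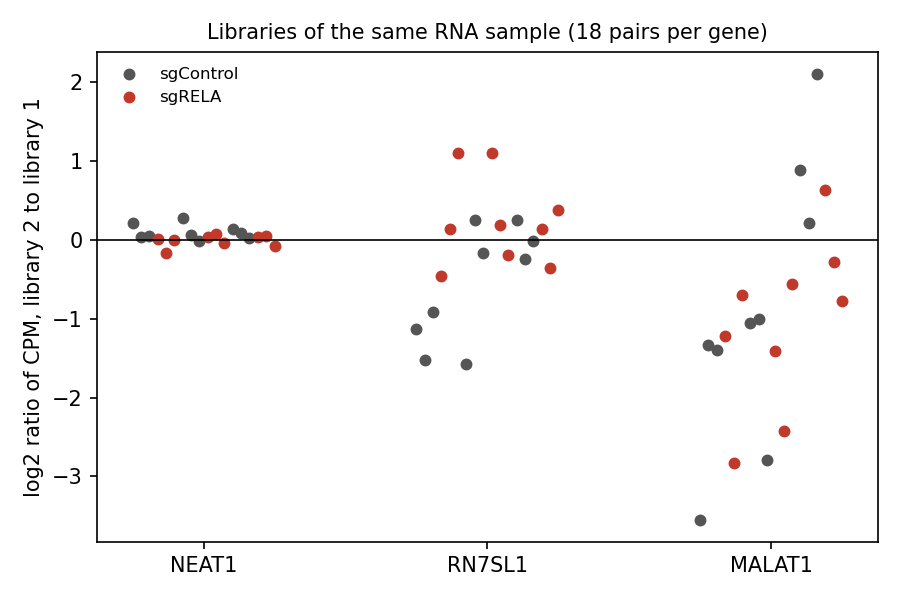
Log2 ratio of CPM in library 2 to library 1 (y axis) for the 18 RNA samples, for NEAT1, RN7SL1 and MALAT1 (x axis). Each point is 1 RNA sample, coloured by guide. The larger value exceeds the smaller by at most 1.22-fold for NEAT1, 2.98-fold for RN7SL1 and 11.7-fold for MALAT1.

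The largest MALAT1 gap was in sgControl day 5 replicate 1, with 25 counts in library 1 and 2 in library 2. In sgRELA day 5 replicate 2 the counts were 75 and 9, and in sgControl day 6 replicate 3 they were 68 and 8. The second library was the lower one in 14 of 18 pairs. It was lower in 6 of 6 pairs on day 5 and 6 of 6 on day 6, and in 2 of 6 on day 7, a split by day that was seen after the values were known and was not tested. Over all pairs the second set was lower by a log2 fold change of -0.95 ± 0.35 (edgeR, adjusted p = 1.000, unadjusted 0.00986). The same test gave 0.04 ± 0.03 for NEAT1 and -0.17 ± 0.14 for RN7SL1, and called 0 of 3 members and 0% of 19434 genes, with 808 genes at an unadjusted p under 0.05 and 0 calls by DESeq2.

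Taking the 4 genes as 1 sum, their share of all counts was 0.248 ± 0.00999% in sgControl and 0.307 ± 0.00870% in sgRELA on day 5, 0.245 ± 0.0190% and 0.309 ± 0.0162% on day 6, and 0.232 ± 0.00411% and 0.261 ± 0.00833% on day 7 (SD, n = 3, a description with no test). NEAT1 made up most of it, with 0.229% and 0.295% on day 5.

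For the protein partners of these RNAs the counts of calls are read against the 0.363% of all genes called across days. By edgeR across days 0 of 12 paraspeckle and nuclear speckle proteins, 0 of 6 signal recognition particle proteins, 0 of 8 telomerase, H/ACA and Cajal body proteins, 0 of 7 proteins of the 7SK and P-TEFb group, 0 of 11 RNase P and RNase MRP proteins and 0 of 33 genes of the RNA polymerase III machinery were called. At an unadjusted p under 0.05 the counts were 0, 0, 0, 1, 1 and 2, beside 6.74% of all genes. DESeq2 called 1 gene, BRF1, a subunit of an RNA polymerase III initiation factor. The median log2 fold changes of these lists, in the same order, were 0.0054, -0.02, -0.08, 0.03, -0.06 and 0.01, beside -0.0019 over all genes. Of 9 other nuclear long noncoding RNAs tested, among them TUG1, NORAD and KCNQ1OT1, 0 were called by edgeR or DESeq2 and 0 had an unadjusted p under 0.05, with a median of 0.02.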

How the data were processed

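The authors deposited 1 table of raw gene counts, with a column for each of the 36 RamDA-seq libraries. Reads were handled with cutadapt 1.18 and STAR 2.7.9a on GRCh38, per the submitters' processing notes. The counting tool, annotation, strand setting and treatment of reads with several matches are not given in the sources used here. Each column name matched the labels of 1 library, and 0 columns were left unused. The names of 57693 of 74628 rows came from a table of gene names, and positions and transcripts from GENCODE v29.

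The counts of both libraries of an RNA sample were added (18 sums, 3 per group of guide and day), and for the comparison across days also over days (3 sums against 3), since 1 replicate number may be 1 transduction. Tests used edgeR 4.0.16 in R 4.3.3: TMM factors, filterByExpr with its minimum set to 10 counts, and quasi-likelihood tests with p-values adjusted by Benjamini-Hochberg over all genes tested. The threshold for a call was an adjusted p of 0.05. The 18 sums shared 1 fit, which took them as independent samples. The fit for library sets had a term for each RNA sample. SE was derived from the F statistic. CPM values are counts scaled to a total of 1000000, without TMM factors unless stated. The fits of the 18 sums and of the sums over days were also run on simulated counts, with a result not given here. Those counts were drawn as independent samples, without shared transductions or library pairs. Alternatives were DESeq2 1.42.0, other scalings, no filter, each library set alone, a replicate block and leaving out each replicate.

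The members and gene lists were chosen with earlier results of these data known, and 7SL and 7SK copies were added after seeing the table. Named genes are the members, from each other list up to 3 called genes with the smallest p per comparison, and for each member the 2 most alike genes over 18 RNA samples. Depth was 7586205 to 16124473 counts per library. A floor of 3 counts and 95% intervals cover counting error only. Some items are not reported here.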

Additional observations from a re-analysis of the deposited data

Results flagged for a closer look

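For each member and each combination of guide and day, the most extreme of the 6 libraries was assessed by its gap to the nearest one as a share of the group's range. Of 24 such cases 5 stood apart. Among 6 independent values chance gives about 1 in 20, but these libraries are pairs from 3 RNA samples, and for TERC a single library with counts among libraries at 0 stands apart by construction, so that rate does not apply here. In sgControl on day 6, library 1 of replicate 1 held RN7SL1 at 397 CPM, and the other 5 stood at 133 to 175 CPM. In sgRELA on day 5, library 1 of replicate 2 held NEAT1 at 3200 CPM, and the others stood at 2844 to 2929 CPM. TERC stood apart in 3 groups on very few counts: 0.335 CPM in library 1 of sgControl day 5 replicate 1 (4 counts, the others 0), 0.586 CPM in library 1 of sgRELA day 5 replicate 2 (8 counts, the others at 0 to 0.0858 CPM), and 1.32 CPM in library 2 of sgControl day 6 replicate 3 (13 counts, the others at 0 to 0.271 CPM).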

How the results depend on the processing

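Of 570 values under the alternatives, counted per member and comparison, 536 kept their direction and side of the threshold. The NEAT1 rise across days was called under each alternative run. Reversals were as follows. With the second library set alone RN7SL1 gave 0.24 across days, 0.20 on day 5, 0.40 on day 6 for the guide and 0.13 for day 7 against day 5, and MALAT1 gave 0.0248 for the guide on day 6, 0.88 for day 7 against day 5 and 0.42 for day 7 against day 6. Without the 2 libraries with few detected genes RN7SL1 gave 0.23 for the guide on day 6. Leaving out each RNA sample in turn gave -0.18 to 0.16 for RN7SL1 and -0.57 to 0.0304 for MALAT1 on day 6. Between library sets, leaving out each replicate number in turn, in all groups at once, gave -0.0036 to 0.0751 for NEAT1. The cause was not tested.

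The number of members called moved as follows. For the guide on day 5 it was 0 with the first library set, 2 with no filter (NEAT1 and RN7SL1) and 1 to 2 leaving out each sample, and on day 6 it was 0 with the first set. For day 6 against day 5 it was 1 with the second set and 0 to 1 leaving out each sample. For day 7 against day 5 it was 0 with the first set, 0 with no filter and 0 to 2 leaving out each sample. For day 7 against day 6 it was 0 with DESeq2, with either library set and without the 2 libraries with few detected genes, 2 with total counts and 0 to 1 leaving out each sample. Guide by day gave 1 with no filter, RN7SL1. Without mitochondrial genes in the total, the summed share on days 5, 6 and 7 was 0.270%, 0.268% and 0.251% in sgControl and 0.333%, 0.341% and 0.283% in sgRELA. In sgControl on day 7 it was 0.225% with the first and 0.238% with the second set.

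Deviations of samples of the 2 guides with the same number were only weakly correlated. Per day r was -0.0095 to 0.0600, and 8 of 18 correlated best with their own number. For the sums over days r was -0.00087 to 0.0193, and 4 of 6 correlated best with their own number. The numbers were not taken as pairs. With the replicate block 124 genes were called across days in place of 105, the log2 fold change of NEAT1 was 0.31 (edgeR, adjusted p = 8.67e-09), and no call on a member changed. TERC and MALAT1 had 73 and 934 counts in all; the part of depth in their errors was not tested.

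Calls over all genes depended strongly on some alternatives. Across days 105 genes were called, with DESeq2 224, with no filter 221, with the first library set 42, with the second 49, and 66 to 69 without sgControl replicate 3 or any 1 of the sgRELA replicates. On day 5 it was 38, with DESeq2 73, with no filter 68, and with the library sets 15 and 22. On day 6 it was 59, with DESeq2 126, with the library sets 15 and 35, and without sgRELA day 6 replicate 2 it was 38. On day 7 it was 25, with DESeq2 53, with no filter 55, with the first set 13, and without sgRELA day 7 replicate 1 it was 16. With the first set alone the day comparisons called 1434 (4615 with both sets, 3023 with the second), 2410 (6263) and 3094 (6257) genes, for days 6 against 5, 7 against 5 and 7 against 6. Guide by day called 1 gene, DESeq2 12, and no filter 24. Between library sets no filter gave 7 in place of 0.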

Other observations

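Many genes of the proteins that bind these RNAs were lower on day 6 than on day 5 and higher on day 7 than on day 6. Over all genes, edgeR called 16.7% from day 5 to day 6 and 22.7% in each comparison with day 7. From day 6 to day 7, 10 of 12 paraspeckle and nuclear speckle proteins rose and 0 fell by edgeR's quasi-likelihood test, with a median log2 fold change of 0.49 beside -0.08 over all genes. The splicing factors SRSF1 and SRSF2 rose 1.81-fold and 1.89-fold, and HNRNPK, a paraspeckle protein, 1.51-fold. SRSF1 stood at 250 ± 22.1 and 272 ± 5.87 CPM after TMM scaling on day 6 (sgControl and sgRELA, SD, n = 3) and at 471 ± 6.53 and 474 ± 22.6 CPM on day 7. The paraspeckle RNA NEAT1 had a value of -0.05 in the same comparison. From day 5 to day 6, 1 of the 12 had risen and 4 had fallen, and day 7 against day 5 gave 10 higher and 1 lower (median 0.37).

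Of 8 telomerase, H/ACA and Cajal body proteins 7 rose from day 6 to day 7 and 0 fell (edgeR, median 0.92). DKC1, GAR1 and NHP2, which bind H/ACA RNAs and TERC, rose 2.00-fold, 2.14-fold and 2.23-fold. From day 5 to day 6, 6 of the 8 had fallen, with DKC1 lower by 1.52-fold, and day 7 against day 5 gave 4 higher and 1 lower. Among signal recognition particle proteins 4 of 6 rose from day 6 to day 7, with SRP9, which binds the Alu part of 7SL, up 1.85-fold, while the RN7SL1 value was -0.36. From day 5 to day 6, 3 of the 6 had fallen and 0 had risen, and day 7 against day 5 gave 2 higher and 2 lower (median 0.037). Of 33 genes of the RNA polymerase III machinery 13 rose and 1 fell from day 6 to day 7, the first including GTF3A, which binds the 5S RNA gene, with 2.01-fold and the polymerase subunit POLR3K with 2.18-fold. From day 5 to day 6, 0 had risen and 11 had fallen, and day 7 against day 5 gave 9 higher and 2 lower (median 0.0262). For 11 RNase P and RNase MRP proteins, 0 rose and 2 fell from day 5 to day 6, 6 rose and 0 fell from day 6 to day 7, and day 7 against day 5 gave 5 higher and 1 lower. For 7 proteins of the 7SK and P-TEFb group these counts were 1 higher and 1 lower, 2 higher and 1 lower, and 1 higher and 1 lower.

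Other short structured RNAs were scarce in these libraries. The 14 other RNA polymerase III RNAs with a row summed to 2.25 CPM to 16.08 CPM per library. The 12 spliceosomal and U7 RNAs summed to 5.07 to 18.7 CPM, and 15 other small Cajal body RNAs to 2.58 to 10.2 CPM. The sum was higher, 13.1 to 64.2 CPM, for 17 rows of box C/D and H/ACA small nucleolar RNAs. All these sums were below RN7SL1 alone, which was at least 69.3 CPM.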
